A study of Mus musculus with 8 samples.

Results

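Transcripts of 4 genes that carry iron through a cell were followed in the whole blood of mice under normobaric hypoxia, in which the oxygen content of the air is lowered at normal pressure. The genes were Tfrc, Fth1, Slc40a1 and Hmox1. They were read by 7 probe sets, the array's groups of short probes for a transcript, chosen by their IDs from 45037 probe sets without the array's control probe sets. The gene names are those of the Affymetrix mouse array annotation that came with this choice: 3 probe sets for Tfrc, 2 for Fth1, 1 for Slc40a1 and 1 for Hmox1. A further 3 control probe sets for the transferrin receptor, whose IDs begin with AFFX-TransRecMur, were set beside those of Tfrc.

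The hypoxia group held 4 arrays, from mice kept in a closed chamber whose oxygen was brought from 21% to 8% over 14 days, with blood taken from the vena cava after 15 days. The control group held 4 arrays, from mice at room condition. RNA came from 500 µl of blood in hypoxia and from 100 µl in control, so blood volume and group cannot be told apart. The labels give neither strain nor age nor sex, and no genetic change in either group. Nothing in them says that each array is a separate mouse, so the spread behind every p-value is that of these arrays and may be partly technical. In whole blood, a change in the number of cells of a type and a change in RNA per cell cannot be told apart. This holds for a rise, as for Tfrc below, and for a fall.

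Most iron in the body sits in the hemoglobin of red cells. Cells take up iron bound to transferrin through the transferrin receptor Tfrc, which is abundant on red cell precursors and on the youngest circulating red cells and is lost as these mature. Fth1 encodes the heavy chain of ferritin, the protein shell that stores iron and oxidizes it on entry. Slc40a1 encodes ferroportin, the exporter through which macrophages and gut cells release iron, and Hmox1 encodes heme oxygenase, which breaks heme down and frees its iron. When iron is scarce, iron regulatory proteins stabilise the Tfrc message and block translation of the Fth1 and Slc40a1 messages. Hypoxia-inducible factor, a transcription factor stabilised at low oxygen, can act on the promoter of Tfrc.

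The promoters of Tfrc and Fth1 are shown because RefSeq windows (GRCm38.p6) were at hand for only these 2 of the 4 genes, 2 windows for each. The choice does not rest on their difference between hypoxia and control. Each line runs from 250 bases before an annotated start through 30 bases from that start, on the plus strand. Capitals mark the letters ACGTG and GCGTG, the cores that hypoxia-inducible factor can bind, read on either strand (as CACGT and CACGC on the other), and no marked match overlaps another.
Tfrc chr16:32608646-32608925: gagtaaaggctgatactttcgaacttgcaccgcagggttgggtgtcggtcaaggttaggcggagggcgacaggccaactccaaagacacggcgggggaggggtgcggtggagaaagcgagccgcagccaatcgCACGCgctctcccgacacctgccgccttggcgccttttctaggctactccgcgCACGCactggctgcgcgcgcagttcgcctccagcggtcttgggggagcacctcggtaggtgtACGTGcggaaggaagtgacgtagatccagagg
Fth1 chr19:9982396-9982675: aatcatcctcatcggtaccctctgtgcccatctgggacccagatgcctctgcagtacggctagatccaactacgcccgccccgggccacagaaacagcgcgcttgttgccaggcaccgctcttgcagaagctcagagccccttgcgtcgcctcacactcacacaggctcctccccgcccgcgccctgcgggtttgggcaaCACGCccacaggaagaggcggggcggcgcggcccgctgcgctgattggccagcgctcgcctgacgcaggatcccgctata

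In the Tfrc window, ACGTG began 2 bases before the annotated start, and CACGC began 117 and 64 bases before it. The second Tfrc window, for a start further downstream, held the same ACGTG 228 bases before that start, and GCGTG 134 and 42 bases before it. In the Fth1 window shown, CACGC began 50 bases before the start and ACGTG was not found. The other Fth1 window held neither. Among 32851 RefSeq windows of 280 bases, 18.5% held ACGTG on either strand and 41.8% held ACGTG or GCGTG. TGACNNNGC, a core of the antioxidant response element, was in none of the 4 windows and in 11.5% of all. These matches describe letters in the windows.

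As deposited, the arrays shared a trimmed mean intensity of 500, while the median ranged from 229.9 to 244.6 in hypoxia and from 162.8 to 201.6 in control. The hybridization controls, RNAs added with the sample to every array, were brighter in hypoxia by 0.94 on the log2 scale, and the median probe set was higher by 0.19. No probe set IDs beyond these and the array's controls were paired with genes here, so blood cell markers, among them those of red cell precursors and of each leukocyte class, and the other iron genes were not analysed here, and the label of whole blood was not checked against markers.

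Of the 7 probe sets, 2 rose in hypoxia, 0 fell and 5 did not pass the test (limma, adjusted p under 0.05 over 45037 probe sets). At an unadjusted p under 0.05, 4 of the 7 were higher and 0 lower. Both that rose were probe sets of Tfrc. Across all probe sets tested, 3.65% were called higher and 2.6% lower, 6.25% in all. The 4 hypoxia arrays lay above the 4 control arrays in 4 of the 7, which were 2 probe sets of Tfrc and both of Fth1, and in 10.5% of all probe sets. The median log2 difference was 1.00 over the 7, against 0.19 over all. Intensities below are on the deposited scale, and differences are hypoxia minus control in log2.

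**Figure D1:**
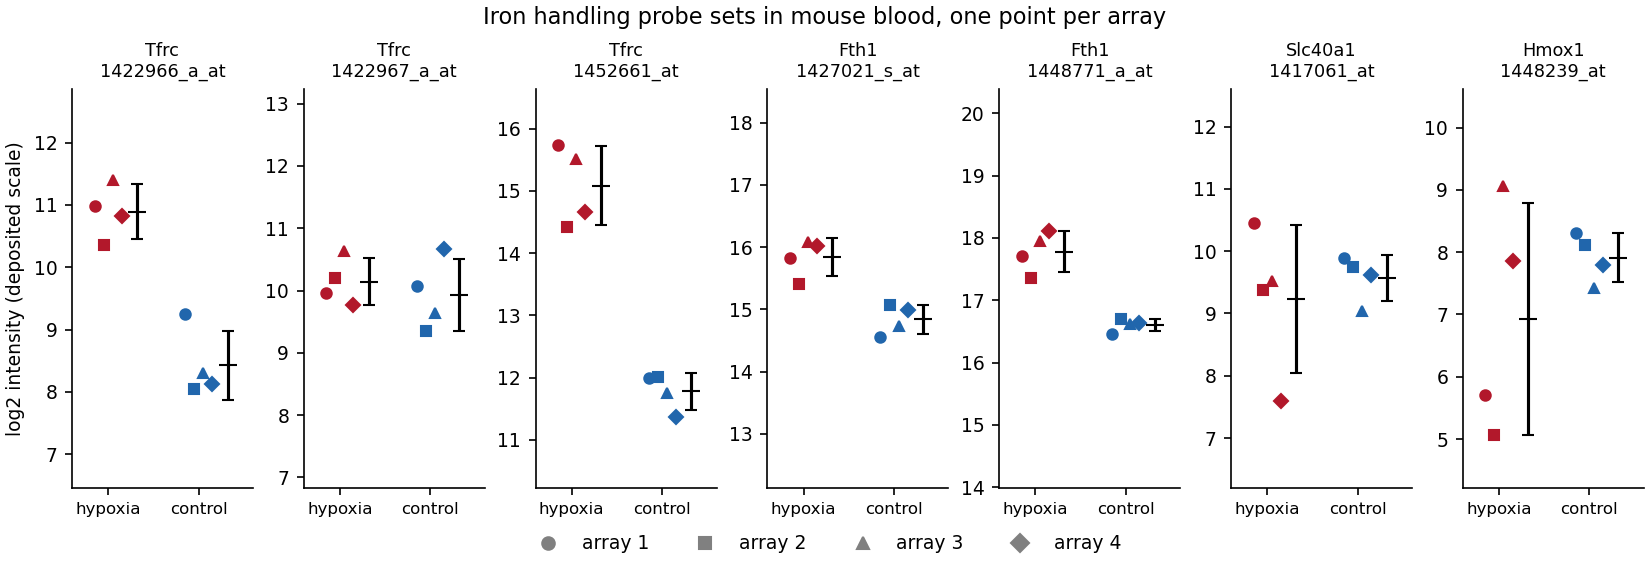
Log2 intensity (vertical axis, spanning the same number of log2 units in every panel) of the 7 probe sets on the 4 hypoxia arrays (left, red) and the 4 control arrays (right, blue). Symbols name the arrays within a group, and black bars give the mean and SD. The groups are separated for Tfrc 1452661_at and 1422966_a_at and for both Fth1 probe sets, and the hypoxia arrays are spread widely for Slc40a1 and Hmox1.

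Tfrc, the iron uptake receptor, had the largest rise among the 7 at probe set 1452661_at. Its intensity was 54587, 21892, 46931 and 26005 on hypoxia arrays 1 to 4, against 4084, 4129, 3443 and 2649.6 on control arrays 1 to 4. All hypoxia arrays were above all control arrays, with arrays 1 and 3 the highest, and the lowest hypoxia array was several times above the highest control array. The log2 level was 15.08 ± 0.64 in hypoxia and 11.78 ± 0.30 in control (SD, n = 4 each), a difference of 3.30 (limma SE 0.43, adjusted p = 0.013). This is a 9.87-fold rise, with a 95% interval of 4.98 to 19.6, and 1.19% of all probe sets had a larger difference. By exact permutation of the arrays p was 0.0286, and 4 against 4 allow none smaller. The call held with any 1 array left out, with differences of 3.09 to 3.52 and adjusted p of 0.0179 to 0.0462 (limma).

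The second Tfrc probe set that rose was 1422966_a_at. Its intensity was 2035, 1308, 2719 and 1812 on the hypoxia arrays, against 606, 263, 317 and 279 on the control arrays. Control 1 stood above the other controls, and all hypoxia arrays lay above it. The log2 level was 10.89 ± 0.44 in hypoxia and 8.43 ± 0.55 in control (SD, n = 4 each), a difference of 2.47 (limma SE 0.43, adjusted p = 0.0209) or 5.52-fold. Without control 2, 3 or 4 or hypoxia 1 or 3 the difference, 2.29 to 2.43, missed the threshold (limma adjusted p of 0.0529 to 0.0686), and centred on the hybridization controls it was 1.53 (adjusted p = 0.0548).

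The third, 1422967_a_at, had overlapping groups. Its intensity was 994, 1178, 1589 and 869.7 on the hypoxia arrays, against 1078, 649.9, 798 and 1619 on the control arrays. The highest value of all was that of control 4, and the hypoxia arrays lay within the range of the controls. The difference was 0.21 (limma SE 0.43, adjusted p = 0.796), with a 95% interval of -0.76 to 1.18, which does not reach the differences of the other Tfrc probe sets. In the table that the authors deposited, probe set 1452661_at was higher by 2.86 and 1422966_a_at by 2.09, each with a q-value of 0%, and 1422967_a_at stood at -0.01 with a q-value of 17.9%. That table lists 20.6% of its probe sets as higher and 41.1% as lower at a q-value under 5%.

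**Figure D2:**
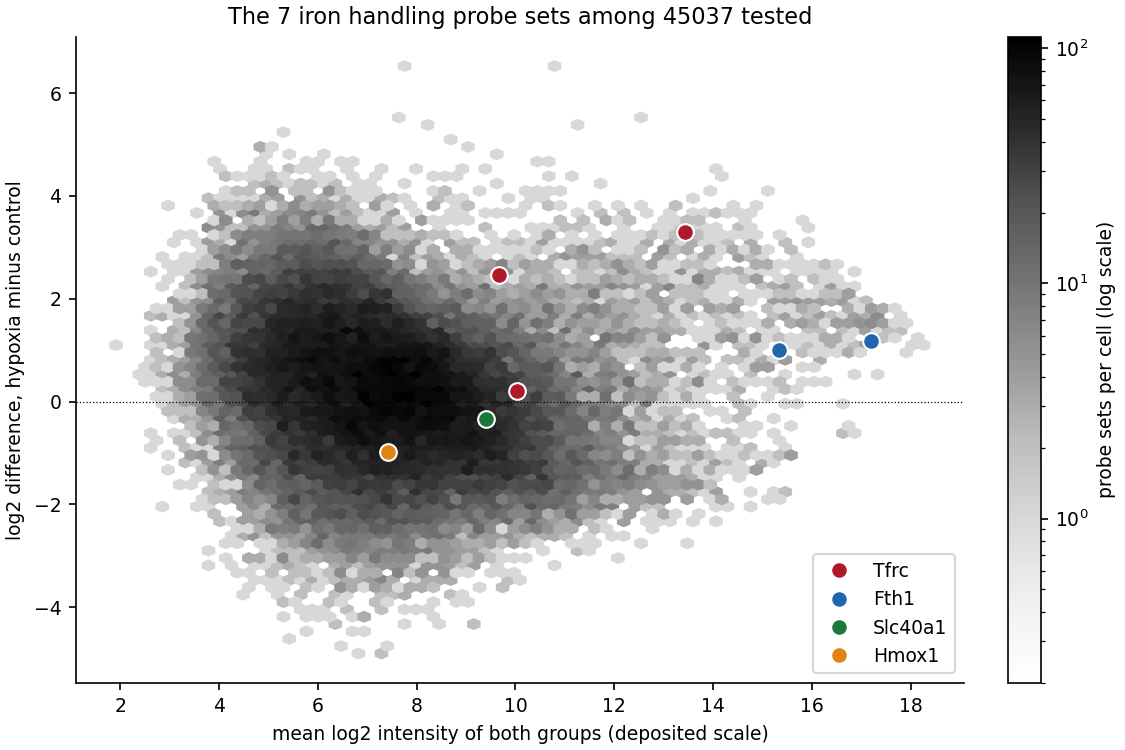
Log2 difference, hypoxia minus control (vertical axis), against the mean log2 intensity of both groups (horizontal axis) for all 45037 probe sets, in grey by number of probe sets, with the 7 iron handling probe sets in colour. Tfrc 1452661_at and 1422966_a_at lie above most probe sets of like brightness, and both Fth1 probe sets lie among very bright probe sets that are mostly above 0.

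The array's control probe sets for the transferrin receptor read the 3' end, the middle (M) and the 5' end of the message. AFFX-TransRecMur at the 3' end had intensities of 1863, 751, 1623 and 778 on the hypoxia arrays, against 484, 194, 354 and 328 on the control arrays. Hypoxia 1 and 3 were again the highest, and the groups did not overlap. In the middle the values were 757, 544, 576 and 343 in hypoxia, against 449, 233, 246 and 327 in control, where hypoxia 4 fell within the control range. At the 5' end they were 46.7, 286, 309 and 25.2 in hypoxia, against 66.5, 66.9, 144 and 104 in control, with hypoxia arrays on both sides of the controls. Hypoxia 1 and 4 read far below the median of their arrays there, and the files give no detection call, so a level above background is not shown for the 5' probe set and no change is read from it. The 3' control probe set changed more than the middle one by 1.02 (SE 0.28, exact permutation p = 0.0571), and by 1.14 after quantile normalization (exact p = 0.0286). As deposited the groups overlapped in this log2 ratio, with hypoxia 2 at 0.47 and control 3 at 0.52. A difference between the 3' end and the middle of 1 message can be a sign of RNA quality. Its part in the Tfrc changes was not tested.

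The probe sets of this gene changed by unequal amounts within the same arrays, as comparisons with the 3' and the middle control probe sets showed, out of 9 ratios formed. These compare log2 ratios within an array, which a constant factor for the array leaves as they are, and their exact permutation p-values are unadjusted. The change of 1452661_at exceeded that of the 3' control probe set by 1.47 (SE 0.33) and that of the middle one by 2.49 (SE 0.35), each with separated groups (exact p = 0.0286). On the hypoxia arrays the ratio of 1452661_at to the 3' control probe set varied little, with an SD of 0.0996, against an SD of 0.66 on the control arrays. Without any 1 hypoxia array the excess over the 3' control probe set was 1.42 to 1.49 with exact p = 0.0571, and after quantile normalization it was 0.96 (exact p = 0.0857).

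For 1422966_a_at the excess over the middle control probe set was 1.65 (SE 0.32, exact p = 0.0286). Over the 3' control probe set it was 0.63 (SE 0.28, exact p = 0.0857). With 1 array left out this ran from 0.46 without hypoxia 4 (exact p = 0.171) to 0.83 without hypoxia 1 (exact p = 0.0286). The change of 1422967_a_at was below that of the 3' control probe set by a log2 ratio of -1.63 (SE 0.42, exact p = 0.0286), with separated groups; without control 2 or 4 the ratio was -1.57 or -1.39 (exact p = 0.0571). Against the middle control probe set it was -0.61 (SE 0.33, exact p = 0.114).

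Among the 3 annotated Tfrc probe sets themselves, 1422967_a_at changed less than both others on the same arrays. Its change minus that of 1452661_at was -3.09 (SE 0.52, exact p = 0.0286). The change of 1422966_a_at exceeded it by 2.26 (SE 0.42, exact p = 0.0286). Both held with any 1 array left out (exact p = 0.0286). The change of 1422966_a_at minus that of 1452661_at was -0.84 (SE 0.32, exact p = 0.0571). It was -1.10 with an offset of 100 and -1.04 without control 2 (exact p = 0.0286 for each). The sequences these probe sets target were not analysed here, and why they differ was not tested.

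**Figure D3:**
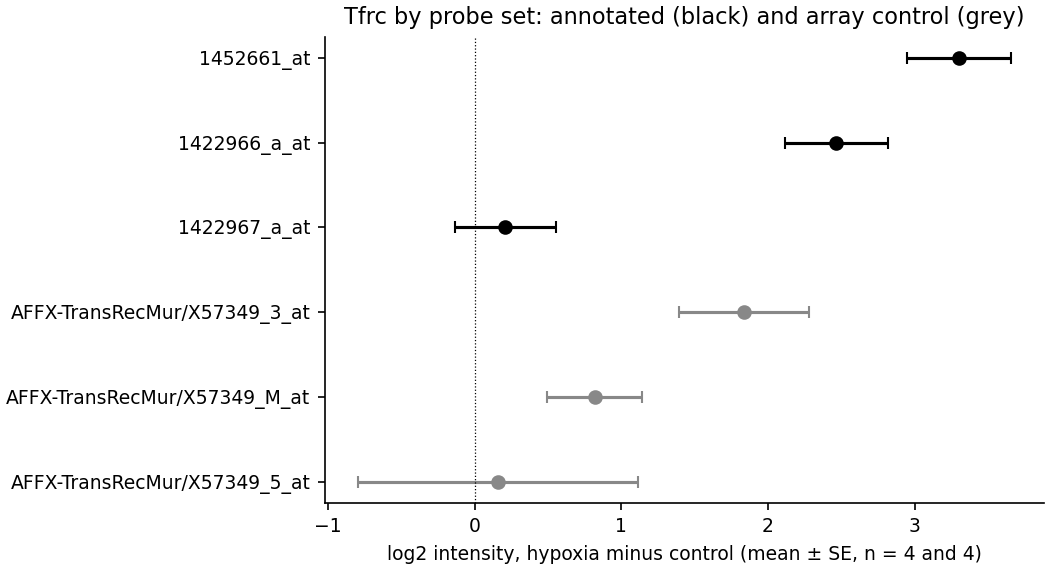
Log2 difference in intensity, hypoxia minus control (horizontal axis, mean and SE over 4 and 4 arrays), for the 3 annotated Tfrc probe sets (black) and the 3 control probe sets of the transferrin receptor (grey). The differences run from 3.30 at 1452661_at to 0.16 at the 5' control probe set, and the 5' one, not shown to be above background, has the widest error.

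Fth1, the ferritin heavy chain that stores iron, was brighter on every hypoxia array as deposited, at both probe sets. Probe set 1448771_a_at had intensities of 213626, 167482, 253798 and 282389 on the hypoxia arrays, against 90087, 106484, 100263 and 101930 on the control arrays. The controls lay close together, and the lowest hypoxia array, hypoxia 2, was above all of them. The log2 difference was 1.18 (limma SE 0.35, adjusted p = 0.0778; exact permutation p = 0.0286), which missed the threshold over all probe sets, with a 95% interval of 0.39 to 1.97.

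Probe set 1427021_s_at had intensities of 57769, 43672, 69615 and 66599.6 on the hypoxia arrays, against 24118, 34488, 27289 and 32587 on the control arrays. Hypoxia 2 was again the lowest of its group, and the groups did not overlap. The difference was 1.00 (limma SE 0.35, adjusted p = 0.124; exact permutation p = 0.0286), with a 95% interval of 0.19 to 1.80. By Affymetrix naming the ending s_at marks probes shared by several transcripts, so its signal may hold that of near-identical copies. The change of 1448771_a_at minus that of 1427021_s_at was 0.18 (SE 0.09, exact p = 0.143).

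Both probe sets belonged to the 450 brightest of the array, the top 1%, where 87.6% of probe sets were higher in hypoxia and the median difference was 1.54. Of these 450, 66.0% had a larger difference than 1448771_a_at and 72.7% a larger one than 1427021_s_at, counted without a test. Within each array the place of Fth1 was lower in hypoxia: 1448771_a_at stood at percentiles 99.84 to 99.89 of intensity in hypoxia, against 99.91 to 99.95 in control, and 1427021_s_at at 99.28 to 99.36, against 99.36 to 99.52. Tfrc 1452661_at moved the other way, to percentiles 98.8 to 99.3 in hypoxia, against 94.1 to 96.6 in control.

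The direction of the Fth1 difference turned with the scaling. It was -0.26 at 1448771_a_at and -0.29 at 1427021_s_at after quantile normalization, which gives all arrays the same distribution of intensities (limma adjusted p = 0.661 and 0.639). Centred on the hybridization controls it was 0.24 and 0.06 (adjusted p = 0.722 and 0.944), and centred on the array median 0.84 and 0.65 (adjusted p = 0.184 and 0.315). The authors' deposited table gave -0.22 with a q-value of 7.75% and -0.19 with a q-value of 10.7%. The median of all probe sets differed among these scalings too: it was 0.19 as deposited, 0.004 after quantile normalization, -0.15 centred on the array median and -0.74 centred on the hybridization controls. As deposited, 3 other settings of the test called both probe sets higher: an offset of 100 before log2, a trended and robust prior, and a filter on dim probe sets (limma adjusted p of 4.04e-05 to 0.0349). No direction for Fth1 thus held under all scalings, whereas Tfrc 1452661_at was called higher under each of them.

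**Figure D4:**
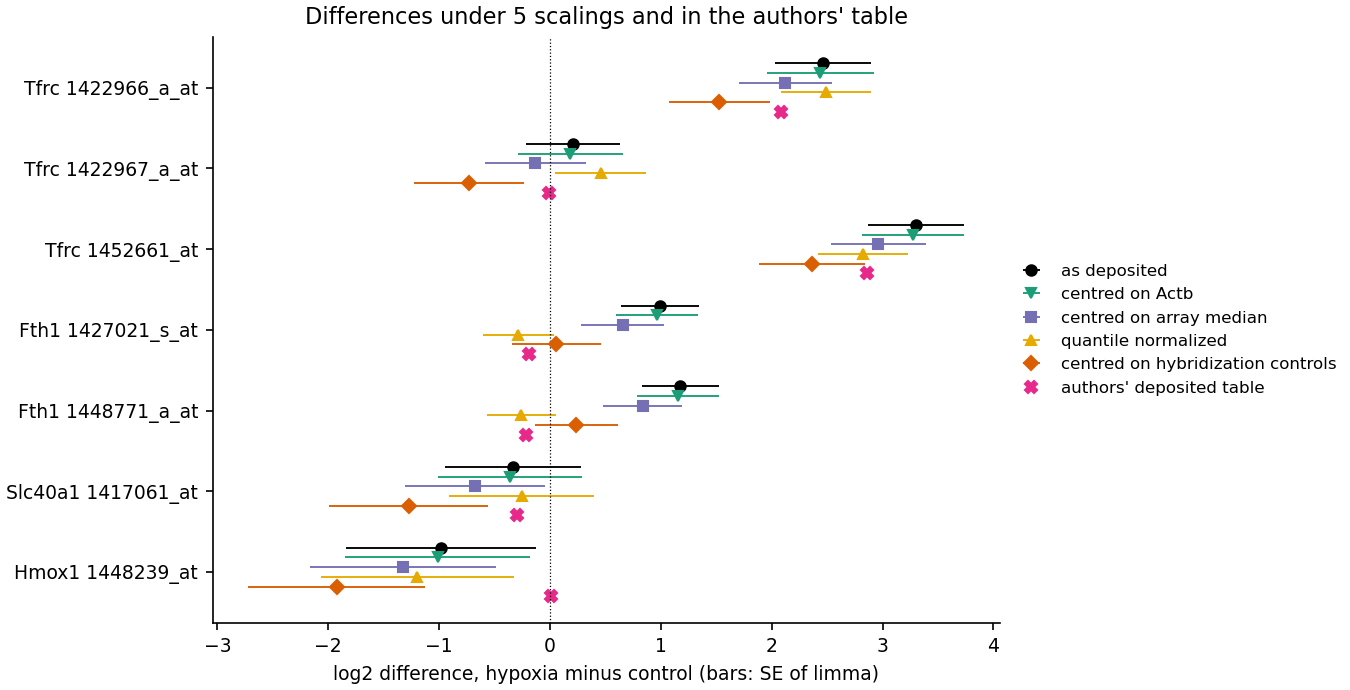
Log2 difference, hypoxia minus control (horizontal axis), for each of the 7 probe sets as deposited, under 4 other scalings (bars, SE of limma) and in the authors' deposited table (crosses, no error given). Tfrc 1452661_at and 1422966_a_at are above 0 throughout, while both Fth1 probe sets are above 0 as deposited and below 0 after quantile normalization and in the authors' table.

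Slc40a1, the iron exporter ferroportin, was read by 1417061_at. Its intensity was 1397, 667, 733 and 193 on the hypoxia arrays, against 947, 857, 525 and 786 on the control arrays. Hypoxia 1 was above every control and hypoxia 4 below every control. Hypoxia 4 also read below the median of its own array, at percentile 43.6 of intensity, and the files give no detection call. The log2 level was 9.24 ± 1.19 in hypoxia and 9.57 ± 0.37 in control (SD, n = 4 each), a difference of -0.34 (limma SE 0.61, adjusted p = 0.772; 95% interval -1.73 to 1.06). Without hypoxia 4 the difference was 0.21 (adjusted p = 0.801), so its sign rested on that array. The authors' deposited table gave -0.30 with a q-value of 12.2%.

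Hmox1, which frees iron from heme, was read by 1448239_at. Its intensity was 52.3, 33.7, 537 and 232 on the hypoxia arrays, against 318, 278, 171 and 222 on the control arrays. Hypoxia 1 and 2 were below every control and far below the median of their own arrays, hypoxia 3 was above every control, and hypoxia 4 lay among the controls. The log2 level was 6.93 ± 1.86 in hypoxia and 7.91 ± 0.39 in control (SD, n = 4 each), a difference of -0.98 (limma SE 0.86, adjusted p = 0.513; 95% interval -2.95 to 0.98). With 1 array left out it ran from -1.70 without hypoxia 3 (adjusted p = 0.204) to -0.37 without hypoxia 2 (adjusted p = 0.806), and it was -0.58 without hypoxia 1. Centred on the hybridization controls it was -1.92 (adjusted p = 0.139) and with an offset of 100 it was -0.42 (adjusted p = 0.581). The authors' deposited table gave 0.01 with a q-value of 23.7%. The highest hypoxia array was 16 times as bright as the lowest, against 1.86 times among the controls, so neither a rise nor a fall was detectable with these arrays. A level above background is not shown for Hmox1 on hypoxia 1 and 2.

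The genes were then compared with each other within each array, over 6 pairs, with the mean log2 intensity over the probe sets of a gene. Tfrc rose relative to the exporter Slc40a1 by 2.33 (SE 0.54), with the 4 hypoxia arrays above the 4 control arrays (exact permutation p = 0.0286, unadjusted). The log2 ratio of Tfrc to Hmox1 was 6.52, 6.59, 3.45 and 3.89 on the hypoxia arrays, against 2.12, 1.68, 2.48 and 2.26 on the control arrays. The first and second of the hypoxia values rest on the dim Hmox1 readings, so ratios to Hmox1 are given as values and no rise or fall is read from them. Without control 1, 2 or 4 the ratio to Slc40a1 changed by 2.19 to 2.35 with exact p = 0.0571. Without hypoxia 4, where Slc40a1 read below the array median, the ratio to Slc40a1 changed by 1.88 (exact p = 0.0286). Relative to the storage gene Fth1, Tfrc differed by 0.91 (SE 0.29, exact p = 0.0571). The difference was 2.20 after quantile normalization and 2.13 when the brightest probe set stood for each gene (exact p = 0.0286 for each), a choice under which Tfrc rose by 3.64 relative to Slc40a1.

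Fth1 relative to Slc40a1 differed by 1.42 (SE 0.71, exact p = 0.0571), and by -0.016 after quantile normalization. With 1 array left out this ran from 0.79 without hypoxia 4 (exact p = 0.114) to 1.84 without hypoxia 1 (exact p = 0.0286). Without control 1 it was 1.25 (exact p = 0.143). Relative to Hmox1, Fth1 differed by 2.07 (SE 0.83, exact p = 0.0857), and by 0.92 after quantile normalization (exact p = 0.343). The ratio of Slc40a1 to Hmox1 hardly varied among the control arrays and varied widely among the hypoxia arrays. Its log2 value was 4.74, 4.31, 0.45 and -0.26 on hypoxia arrays 1 to 4, against 1.57, 1.62, 1.62 and 1.82 on the control arrays. The SD was 2.58 in hypoxia and 0.11 in control (n = 4 each), and the difference of means was 0.65 (SE 1.29, exact p = 0.629). Hypoxia 1 and 2, where Hmox1 was dimmest, had the high ratios, and hypoxia 3 and 4 lay below all controls.

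**Figure D5:**
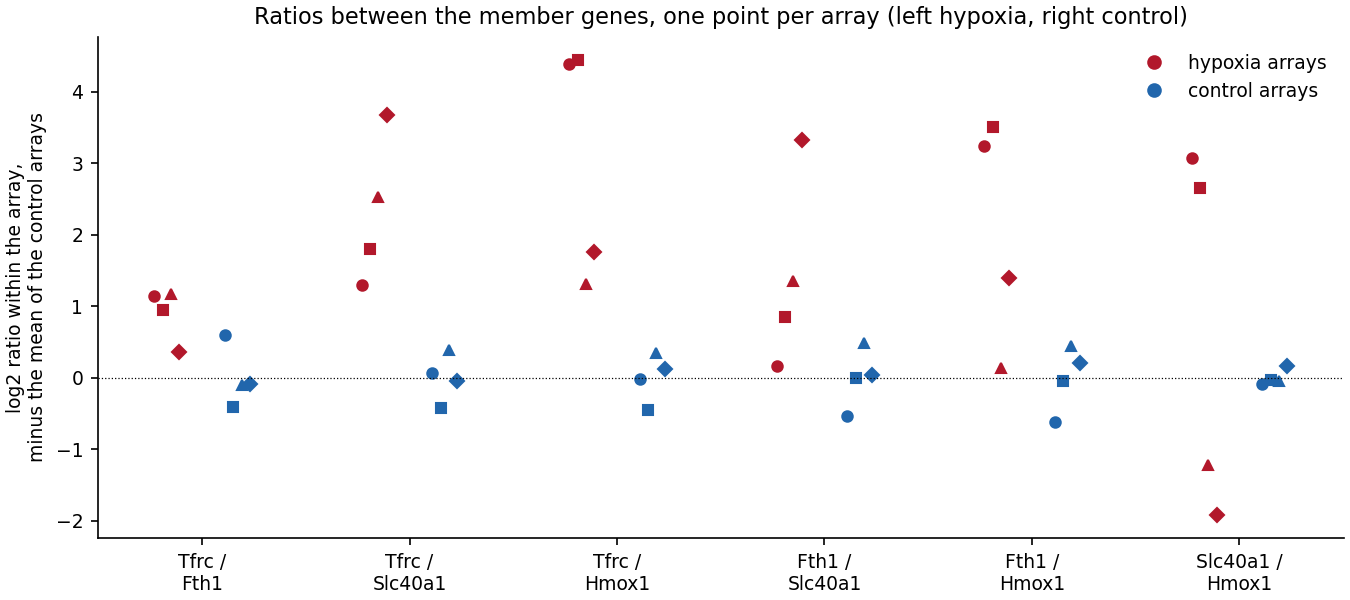
Log2 ratio between the genes within an array, minus the mean of the control arrays (vertical axis), for the 6 pairs of genes, with hypoxia arrays in red on the left and control arrays in blue on the right of each pair. Hypoxia arrays lie above all controls for Tfrc over Slc40a1 and Tfrc over Hmox1, and on both sides of tightly grouped controls for Slc40a1 over Hmox1. Hmox1 is not shown to be above background on hypoxia 1 and 2, so no rise or fall is read from its ratios.

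Against the 3' control probe sets of Actb, a cytoskeletal actin, and of Gapdh, a glycolytic enzyme, 8 ratios were formed. Tfrc rose against Actb by 1.97 (SE 0.28) and Fth1 by 1.06 (SE 0.12), each with separated groups, and both held with any 1 array left out (exact p = 0.0286). Actb itself differed by 0.03 as deposited, while the authors' deposited table lists it at -1.22 with a q-value of 0%, below the -0.22 and -0.19 of Fth1 there, and lists Gapdh at 0.11 with a q-value of 22.6%. Against Gapdh, which itself was 2.32-fold brighter in hypoxia as deposited, Tfrc differed by 0.78 (SE 0.26, exact p = 0.0571), or 1.94 after quantile normalization (exact p = 0.0286), and Fth1 by -0.13 (SE 0.21, exact p = 0.571). Slc40a1 fell against Gapdh by a log2 ratio of -1.55 (SE 0.54, exact p = 0.0286), and this was -1.07 without hypoxia 4 (exact p = 0.0571), with the same p without any 1 control (-1.72 to -1.38). After quantile normalization it was -0.24, with overlapping groups. Slc40a1 against Actb differed by -0.36 (SE 0.66), with overlapping groups, Hmox1 against Actb by -1.01 (exact p = 0.371) and Hmox1 against Gapdh by -2.20 (exact p = 0.0857). With 1 array left out the last ran from -2.92 without hypoxia 3 (exact p = 0.0286) to -1.63 without hypoxia 2 (exact p = 0.114). After quantile normalization it was -1.18 (exact p = 0.343). Both Hmox1 ratios rest in part on the dim readings of hypoxia 1 and 2, so no fall is read from them.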

How the data were processed

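Per the file headers, the deposited table holds 1 linear intensity for each of 45101 probe sets and 8 arrays. Per the submitters' processing notes, GCRMA, RMA and Partek were used. Whether any of them made the deposited intensities was, in the sources used here, not given. Every array had a mean of 500 without the lowest and highest 2% of values, while the medians differed. The deposited arrays thus do not share 1 distribution of intensities, as quantile-normalized arrays would. Here intensities under 1 (14 values) were set to 1, log2 was taken, and all but the 64 control probe sets, which left 45037, entered limma 3.58.1 under R 4.3.3 (lmFit, then eBayes, with no covariate), with Benjamini-Hochberg adjusted p under 0.05 as a change. Single values and ratios within an array were tested by a two-sided exact permutation test over arrays, of which 4 against 4 allow no p under 0.0286. The fit and the test were checked on simulated data in which both groups had the same spread. In the data the hypoxia arrays varied more: among probe sets as bright as Slc40a1 the median SD was 0.51 in hypoxia and 0.36 in control. The check does not cover such unequal spread.

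The authors' deposited table gives, per the file headers, a SAM score, a signed fold, a fold ratio, a log2 difference and a q-value in percent for 19916 of these probe sets. Its log2 differences were made by the authors from other values, and the score was not used. The number of arrays limits the precision. The members and lists were chosen with earlier results of these data known. The genes to name were the 7 members, the transferrin receptor control probe sets, Actb and Gapdh, and genes of an iron list, of blood cell marker lists and of like pattern where a table names their probe sets; no such table was at hand, so those lists gave no result. Alternatives were other scalings, offsets, priors, a filter, array weights, a replicate block and leaving out each array.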

Additional observations from a re-analysis of the deposited data

Results flagged for a closer look

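Of 76 sets of values from the 4 arrays of a group, 2 had 1 array well apart from the rest; about 3.8 such sets arise by chance (1 in 20). For the log2 ratio of Tfrc 1452661_at to the 3' control probe set of the transferrin receptor, hypoxia 4 stood at 5.06, against 4.85 to 4.87 on the other hypoxia arrays. For the log2 ratio of Tfrc to Gapdh, control 1 stood at -4.07, against -4.91 to -4.78 on the other controls. Without control 1, Tfrc exceeded Gapdh in its change by 0.97 (exact permutation p = 0.0286). The cause of either deviation was not tested.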

How the results depend on the processing

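The 2 Tfrc calls among the 7 members held after quantile normalization, centring on the array median or on Actb, an offset of 16 and array weights. Members called higher were 1 after centring on the hybridization controls, where 1422966_a_at was at 1.53, and 4 with an offset of 100, a trended and robust prior or the dim filter, where Fth1 1427021_s_at (0.99, 1.00 and 1.00) and 1448771_a_at (1.18 in each) joined. With the replicate block the count was 0, and 0 of all probe sets were called higher or lower by limma: 1452661_at stood at 3.30 and 1422966_a_at at 2.47 (adjusted p = 0.125 for each, unadjusted p = 0.000547 and 0.00206). At an unadjusted p under 0.05 that fit had 3 members and 5951 probe sets higher and 4397 lower. The labels do not say that arrays of the same number are a pair. Deviations of same-numbered arrays correlated at -0.018 to 0.0064 across probe sets, and no array correlated best with its own number. With 1 array left out, 1 to 2 members were called higher and 0 lower. 1422966_a_at ranged from 2.29 to 2.74, Slc40a1 from -0.74 to 0.21 and Hmox1 from -1.70 to -0.37.

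Signs turned as follows, none of them called; the cause was not tested. 1422967_a_at was at -0.13 centred on the array median, -0.73 centred on the hybridization controls and -0.01 (-0.00716) in the authors' deposited table. Fth1 was at -0.29 and -0.26 after quantile normalization and at -0.19 and -0.22 in the authors' deposited table, and Hmox1 at 0.01 (0.00972) there. After quantile normalization Fth1 minus Slc40a1 changed by -0.016, Slc40a1 minus Actb by 1.02 and Hmox1 minus Actb by 0.079. 1422967_a_at minus the 5' control probe set changed by -0.031 and -0.079 with offsets of 16 and 100.

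Among the ratios between the 4 genes, those that newly reached exact permutation p = 0.0286 under another setting with all arrays were Tfrc minus Fth1, by 2.20 after quantile normalization and 2.13 with the brightest probe sets, and Fth1 minus Hmox1, by 1.51 with an offset of 100, against 0.92 (exact p = 0.343) after quantile normalization. Of the other ratios, Tfrc minus Gapdh did so after quantile normalization (1.94), 1422966_a_at minus 1452661_at with an offset of 100 (-1.10), and the 3' minus the middle control probe set under both (1.14 and 0.91). With 1 array left out, the ratio changes ran from 0.77 to 1.11 for Tfrc minus Fth1, 1.88 to 2.67 for Tfrc minus Slc40a1, 2.49 to 3.53 for Tfrc minus Hmox1, 0.79 to 1.84 for Fth1 minus Slc40a1, 1.59 to 2.71 for Fth1 minus Hmox1 and -0.16 to 1.51 for Slc40a1 minus Hmox1. They ran from -0.49 to 0.53 for 1422967_a_at minus the 5' control probe set, -0.28 to 0.01 (0.00959) for Fth1 minus Gapdh and -0.69 to 0.26 for Slc40a1 minus Actb. In a paired sign-flip test no p under 0.125 was possible.

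Over all probe sets, 1643 rises and 1173 falls were called as deposited. Rises numbered 593 centred on the hybridization controls, 1074 on Actb, 3476 with an offset of 100, 3123 with the trended and robust prior, 3007 with the dim filter and 384 to 1367 with 1 array left out. Falls numbered 2433 centred on the array median, 6129 on the hybridization controls, 408 on Actb, 1908 and 3639 with offsets of 16 and 100, 3713 with that prior, 3382 with the filter and 76 to 1250 with 1 array left out. Hmox1 on hypoxia 1 and 2 and the 5' control probe set are not shown to be above background, which limits what their values can show.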
